A study of Drosophila melanogaster with 6 samples.

Results

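Receptor tyrosine kinases are cell surface receptors that take up signals from secreted growth factors. The genes described here are *Pvr*, which encodes the PDGF/VEGF-like receptor, the genes of its ligands *Pvf1*, *Pvf2* and *Pvf3*, and 6 further receptor genes, *Egfr*, *InR*, *htl*, *btl*, *Alk* and *tor*. These 10 genes were chosen by name and were found by symbol as 10 of the 14540 rows of the deposited table. The values of *btl* are not reported here, so that 9 genes are described and counted, 6 of them receptors. RNA-seq of total RNA compared SIN3 187HA cells with S2 cells, with 3 biological replicates in each group. S2 is a line derived from *Drosophila* embryos. SIN3 187HA cells are S2 cells with a stably integrated, HA-tagged transgene of the SIN3 187 isoform, a scaffold protein of a histone deacetylase complex, behind a metallothionein promoter that copper switches on. Both groups received CuSO4, given as 0.07 µM in the labels and as 0.07 M in the paper, and the labels of replicate 1 in each group give 48 h of treatment. The labels give both groups a wild type genotype. The paper's methods give penicillin/streptomycin and Geneticin for the transfected line and gentamycin for S2 cells, whereas the labels give gentamycin for all samples. In a western blot of the paper, the SIN3 isoform that predominates in S2 cells was nearly lost when the transgene was expressed. Whether the line is a single clone is not given in the sources used here. Effects of the line, its selection, the transgene and the loss of the other isoform cannot be told apart in this comparison.

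Upon ligand binding, a receptor tyrosine kinase dimerizes and phosphorylates itself. Adaptor proteins then dock on the receptor and activate the Ras/MAPK cascade, PI3K signaling or Rac. In the fly, PVR and the PVF ligands guide border cells and support the survival and spreading of hemocytes, the blood cells. EGFR patterns epithelia, the insulin receptor InR controls growth, Heartless (*htl*) and Breathless (*btl*) are the FGF receptors of the mesoderm and of the tracheae, Alk acts in the visceral muscle and the nervous system, and Torso (*tor*) patterns the embryonic ends and times metamorphosis. S2 cells are held to resemble hemocytes.

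The table gives 1 FPKM value per gene and group (fragments per kilobase of transcript, scaled to the number of mapped fragments), in which the authors combined the 3 replicates. No value of a single library, no spread between replicates and thus no test could be given. It cannot be said of any difference below whether it exceeds the spread between replicates. A gene is called higher or lower in SIN3 187HA cells where the ratio of SIN3 187HA over S2, taken as log2 after adding 0.1 FPKM to both values, was at least 2-fold (log2 ratio of 1) and where at least 1 group had 1 FPKM. The addition understates the difference of genes with low values. From the spacing of the lowest values, depth was estimated at 15900000 fragments per library in SIN3 187HA cells and 15300000 fragments per library in S2 cells. *Sin3A*, which holds the reads of both isoforms and of the transgene, had 2319 FPKM in SIN3 187HA cells and 56.9 FPKM in S2 cells. A level in a cell population does not tell fewer cells with a transcript from less transcript per cell.

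All 3 Pvf ligand genes and *Pvr* were higher in SIN3 187HA cells, and so were *InR* and *htl*. *Egfr* differed by less than 2-fold, and *Alk* and *tor* stayed below 1 FPKM in both groups. Thus 7 of the 9 genes had at least 1 FPKM in a group, of which 6 were called higher and 0 lower. Of the 8498 rows of the table that passed the same minimum, 14.3% were called higher and 12.8% lower. Among the 6, *Pvf1*, *Pvf3* and *htl* passed the minimum in SIN3 187HA cells alone, so that their direction was fixed by the minimum. The same holds for *Egfr*, which was not called. The count is thus a description of the named genes only. With 1 FPKM asked for in both groups, 3 of the genes remained, *Pvr*, *Pvf2* and *InR*, and all 3 were higher, against 8.73% of the 7408 rows that passed this minimum. The median log2 ratio of the 7 genes was 1.70, and that of the 8498 rows was -0.03, with quartiles at -0.50 and 0.50. The median of 1.70 takes in the genes that passed the minimum in SIN3 187HA cells alone and so could only lie above 0. With 1 FPKM asked for in both groups, the median of the 3 remaining genes was 1.36.

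**Figure D1:**
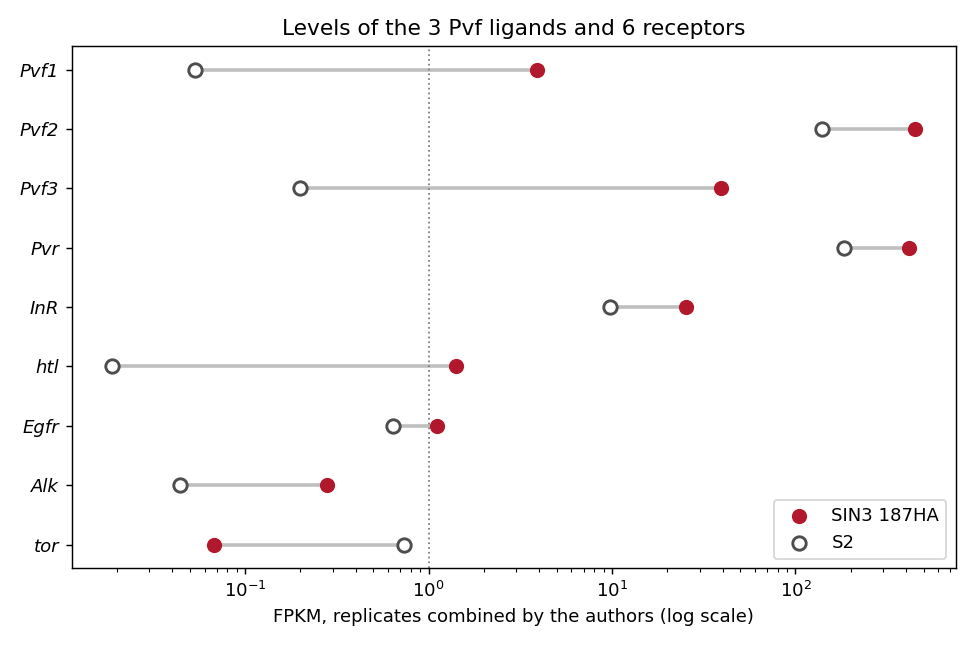
FPKM of the 3 Pvf ligand genes and 6 receptor genes on a log axis, with filled points for SIN3 187HA cells and open points for S2 cells, each the authors' combined value of 3 replicates; the dotted line marks 1 FPKM. *Pvf2* and *Pvr* had the highest levels in both groups, the gaps were widest for *Pvf3*, *htl* and *Pvf1*, and among these 9 genes only *tor* lay further left in SIN3 187HA cells.

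*Pvr* had the highest level of the 19 receptor tyrosine kinase rows examined, *btl* not among them, in both groups. Its row spans chromosome 2L from 8220980 to 8239878 (dm3), and no other row of the table overlaps it. *Pvr* had 414 FPKM in SIN3 187HA cells and 183 FPKM in S2 cells, a 2.27-fold difference with a log2 ratio of 1.18. It stood at rank 224 of the 14540 rows in SIN3 187HA cells and at rank 563 in S2 cells. Among the 8498 counted rows its log2 ratio was the 1041st from the top, so that many genes differed by more.

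*Pvf2* was the main ligand gene of PVR in both groups. Its row spans 7069578 to 7084634 on chromosome 2L. *Pvf2* had 450.1 FPKM in SIN3 187HA cells and 139 FPKM in S2 cells, a 3.25-fold difference with a log2 ratio of 1.70. It held rank 216 of all rows in SIN3 187HA cells and rank 760 in S2 cells. Levels per transcript length may be set side by side: the level of *Pvf2* was 1.09 times that of *Pvr* in SIN3 187HA cells and 0.759 times in S2 cells. The order of these neighbouring levels was thus turned round between the groups, but without replicate values it is not known whether either gap exceeds the spread.

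*Pvf3* showed the widest gap of the 9 genes. It is the next row after *Pvf2* on chromosome 2L, from 7099692 to 7156701, and 15.1 kb separate the 2 loci. In BDGP6, a later annotation, *Ugt307A1* and *lncRNA:CR44611* overlap *Pvf2*, and *lncRNA:CR44612* overlaps *Pvf3*. Whether reads of these genes enter the values of the ligand genes was not tested. *Pvf3* had 39.2 FPKM in SIN3 187HA cells and 0.199 FPKM in S2 cells. The log2 ratio was 7.04, the 34th highest of the 8498 counted rows. Without the added 0.1 FPKM the ratio was 197, and the S2 value rests on roughly 20.8 to 42.4 fragments over 3 libraries, depending on the transcript length taken. An exact 95% interval from these estimated fragments runs from 139 to 299.6-fold and covers counting error only. In both groups *Pvf3* thus came after *Pvf2* and before *Pvf1* in level.

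*Pvf1*, on chromosome X from 18726736 to 18736934, had the lowest level of the ligand genes. It had 3.90 FPKM in SIN3 187HA cells and 0.0532 FPKM in S2 cells, with a log2 ratio of 4.71. The S2 value stands for an estimated 3.92 to 6.30 fragments over 3 libraries, so the ratio of 73.3 is coarse, with an exact 95% interval of 29.3 to 280.04-fold from counting error alone. The 3 ligand genes together summed to 493 FPKM in SIN3 187HA cells and 139 FPKM in S2 cells, a 3.55-fold difference. *Pvf2* made up 91.3% of this sum in SIN3 187HA cells and 99.8% in S2 cells, *Pvf3* made up 7.94% in SIN3 187HA cells and 0.143% in S2 cells, and *Pvf1* stayed below 1% in both.

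The insulin receptor gene *InR* spans 17395970 to 17445043 on chromosome 3R. Its level was 25.3 FPKM in SIN3 187HA cells and 9.77 FPKM in S2 cells, a 2.58-fold difference with a log2 ratio of 1.36. The noncoding rows *CR43653* and *CR44034* share its locus. *CR43653* had 1.95 FPKM in SIN3 187HA cells and 0.111 FPKM in S2 cells, and *CR44034* had 1.23 FPKM in SIN3 187HA cells and 0.1001 FPKM in S2 cells, so both were higher together with *InR*. The counting is not stated to use strand, so reads of genes that overlap in these loci cannot be told apart.

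The gene of the FGF receptor Heartless, *htl*, occupies 13870936 to 13878706 on chromosome 3R. Its level was 1.41 FPKM in SIN3 187HA cells and 0.0187 FPKM in S2 cells, with a log2 ratio of 3.67. Its S2 value corresponds to an estimated 2.83 to 3.12 fragments over 3 libraries. The ratio of 75.2 therefore has an exact 95% interval of 24.8 to 359-fold from counting error alone. *htl* was low in SIN3 187HA cells too, at rank 7776 of all rows.

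*Egfr*, on chromosome 2R from 17410510 to 17446932, had 1.11 FPKM in SIN3 187HA cells and 0.637 FPKM in S2 cells, with a log2 ratio of 0.72. Serine protease genes lie in the same locus, and of these *CG30283* had 0.161 FPKM in SIN3 187HA cells and 4.38 FPKM in S2 cells, the opposite direction. *Egfr* thus was scarce in both groups, and its difference did not reach 2-fold.

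*Alk* and *tor* were low in both groups. *Alk* (2R, 12512798 to 12527516) had 0.280 FPKM in SIN3 187HA cells and 0.0442 FPKM in S2 cells, a ratio of 6.34 with an exact 95% interval of 3.83 to 11.02-fold from counting error alone. *tor* (2R, 3586786 to 3597042) had 0.0677 FPKM in SIN3 187HA cells and 0.732 FPKM in S2 cells. It was the one gene of the 9 that was lower in SIN3 187HA cells, with about 9.40 estimated fragments over 3 SIN3 187HA libraries and about 97.8 over 3 S2 libraries. The ratio was 0.0925, with an exact 95% interval of 0.0393 to 0.175 from counting error alone. Of the other rows at the locus of *tor*, *CG34216* had 0.0718 FPKM in SIN3 187HA cells and 0.580 FPKM in S2 cells, and the row of *CG30493* and *CG30496* had 21.0 FPKM in SIN3 187HA cells and 19.9 FPKM in S2 cells. Below the minimum of 1 FPKM, neither gene was counted as higher or lower.

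**Figure D2:**
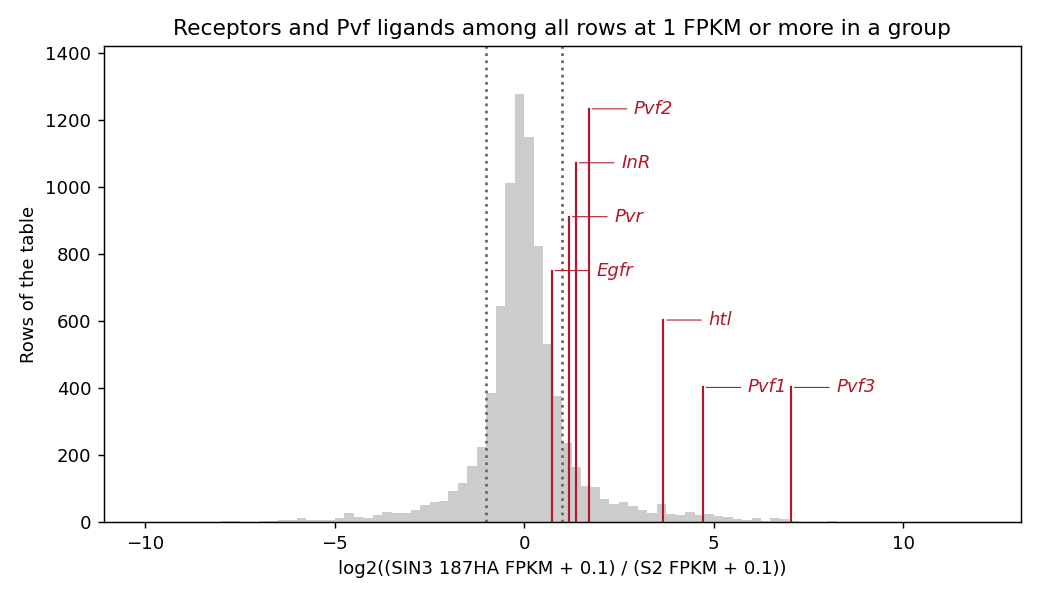
Number of table rows (vertical axis) by log2 ratio of SIN3 187HA over S2 with 0.1 FPKM added (horizontal axis), over the 8498 rows with at least 1 FPKM in a group. Red lines mark the 7 receptor and ligand genes that passed this minimum, and dotted lines mark 2-fold; *Pvf3* at 7.04, *Pvf1* at 4.71 and *htl* at 3.67 stand in the right tail.

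The 6 receptors were set beside the other receptor tyrosine kinase genes, a list of 13. Over these 19 rows, *Pvr* held 65.4% of the summed FPKM in SIN3 187HA cells and 39.0% in S2 cells. The level of *Pvr* was 5.88 times that of the next row in SIN3 187HA cells and 1.16 times in S2 cells. In both groups that next row was the one that *Nrk*, a muscle-specific kinase relative, shares with *CG34439*, which had 70.5 FPKM in SIN3 187HA cells and 158 FPKM in S2 cells. Leaving out *Pvr*, the receptor rows summed to 219.6 FPKM in SIN3 187HA cells and 286 FPKM in S2 cells. *InR* held rank 5 in both groups, while *htl* was the lowest of the 19 rows in S2 cells. Of the 19 rows, 12 reached 1 FPKM in SIN3 187HA cells and 8 in S2 cells.

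**Figure D3:**
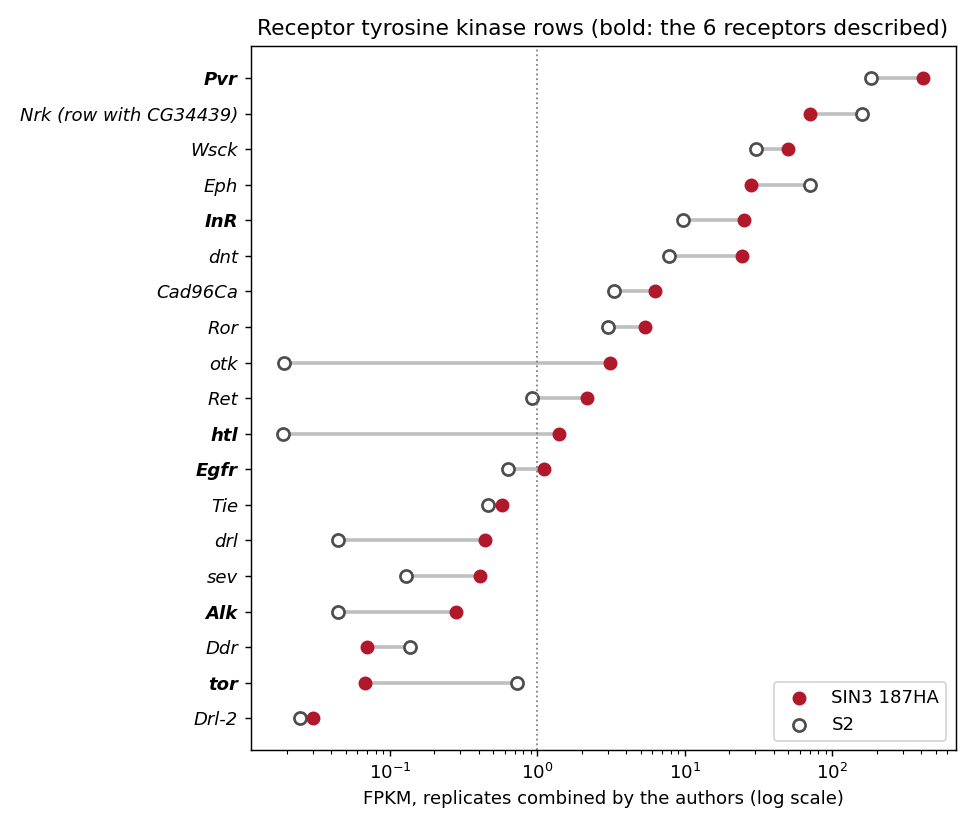
FPKM on a log axis for 19 receptor tyrosine kinase rows, ordered by their level in SIN3 187HA cells (filled points) and shown with S2 cells (open points), each the authors' combined value; the dotted line marks 1 FPKM. *Pvr* leads in both groups, and *otk* and *htl* are near the left end in S2 cells. *Nrk* and *Eph*, and below 1 FPKM *tor* and *Ddr*, lie further left in SIN3 187HA cells.

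Of the 13 other receptor genes, 8 had at least 1 FPKM in a group, with 3 higher, 2 lower and a median log2 ratio of 0.85, beside 14.3% higher and 12.8% lower over all counted rows. *otk* and *Ret* passed the minimum in SIN3 187HA cells alone, and with 1 FPKM asked for in both groups 1 gene was higher and 2 were lower. Of all rows that passed this stricter minimum, 8.73% were higher and 9.71% lower. *otk*, a kinase-dead receptor of axon guidance and Wnt signaling, had 3.10 FPKM in SIN3 187HA cells and 0.0191 FPKM in S2 cells. *dnt*, a relative of the Wnt5 receptor Derailed, had 24.6 FPKM in SIN3 187HA cells and 7.76 FPKM in S2 cells, and *Ret* had 2.16 FPKM in SIN3 187HA cells and 0.922 FPKM in S2 cells. *Eph*, the ephrin receptor, was lower, with 28.0 FPKM in SIN3 187HA cells and 70.7 FPKM in S2 cells, as was the row of *Nrk* (log2 ratio -1.16). *Eph* lies on chromosome 4, where the median log2 ratio of 79 counted rows was -1.41 and 70.9% of them were lower; its own log2 ratio was -1.33.

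Among 20 genes for ligands and binding proteins of the other receptors, 11 were counted. Of these, 5 were higher, 0 were lower and the median log2 ratio was 0.82, again beside 14.3% higher over all counted rows. *aos* and *Ilp5* passed the minimum in SIN3 187HA cells alone, and with 1 FPKM asked for in both groups 3 genes were higher and the median was 0.54. Of all rows that passed this stricter minimum, 8.73% were higher. The widest gap was that of *aos*, which encodes Argos, a secreted protein that sequesters the EGFR ligand Spitz and is itself a target of EGFR signaling. *aos* had 65.0 FPKM in SIN3 187HA cells and 0.753 FPKM in S2 cells, a log2 ratio of 6.25. *CG33158*, which shares the locus of *aos*, had 17.3 FPKM in SIN3 187HA cells and 14.2 FPKM in S2 cells, while the row of *CG42514* and *CG43373* at this locus was lower (log2 ratio -1.14). *spi*, which encodes Spitz, had 306 FPKM in SIN3 187HA cells and 94.9 FPKM in S2 cells (log2 ratio 1.69). The rows of the EGFR ligand genes *Krn* and *grk*, chosen after their values were seen, were within 2-fold. The row that *Krn* shares with *Ndfip* had 69.8 FPKM in SIN3 187HA cells and 48.0 FPKM in S2 cells (0.54), so the level of *Krn* alone is not known. *grk* had 50.9 FPKM in SIN3 187HA cells and 56.9 FPKM in S2 cells (-0.16).

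The FGF and insulin ligands included higher genes as well. *bnl*, the ligand of Breathless, had 4.95 FPKM in SIN3 187HA cells and 1.52 FPKM in S2 cells (log2 ratio 1.64). *pyr*, a Heartless ligand chosen after its values were seen, had 46.7 FPKM in SIN3 187HA cells and 26.4 FPKM in S2 cells (0.82), below the limit. The insulin-like peptide gene *Ilp6* had 84.7 FPKM in SIN3 187HA cells and 30.2 FPKM in S2 cells (1.49), and it lies within the locus of the Raf kinase gene *phl*, whose log2 ratio was 0.47. At the same locus, *CG2854* (1.36) and *CG14050* (1.10) were higher as well. *Ilp5* had 1.10 FPKM in SIN3 187HA cells and 0.243 FPKM in S2 cells. *ImpL2*, an insulin-binding antagonist that was also chosen after its values were seen, was abundant at 485 FPKM in SIN3 187HA cells and 644 FPKM in S2 cells, with a log2 ratio of -0.41. Of 5 genes that process or export EGFR ligands or act upstream of Torso, 3 were counted, with 1 higher and 0 lower. Over all counted rows, 14.3% were higher and 12.8% lower. The higher gene was the intramembrane protease gene *stet*, with 2.36 FPKM in SIN3 187HA cells and 1.05 FPKM in S2 cells (log2 ratio 1.10). This call did not hold with 1 FPKM added or with a limit of 3-fold.

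In the Ras/MAPK and insulin lists downstream of the receptors, the shares of higher and of lower genes were near or below those over all counted rows (14.3% higher, 12.8% lower). In the Ras/MAPK list, 15 of 16 genes were counted, with 2 higher, 0 lower and a median log2 ratio of 0.47. The higher genes were *Sos*, the Ras exchange factor, with 49.2 FPKM in SIN3 187HA cells and 21.3 FPKM in S2 cells, and *csw*, the SHP2-like phosphatase Corkscrew, with 18.2 FPKM in SIN3 187HA cells and 7.78 FPKM in S2 cells. In the insulin, PI3K and TOR list, 14 of 14 genes were counted, with 1 higher, 1 lower and a median of -0.04. *Pdk1*, the kinase upstream of Akt, had 176 FPKM in SIN3 187HA cells and 62.5 FPKM in S2 cells (log2 ratio 1.49), whereas *Pi3K92E*, the catalytic PI3K subunit, had 55.8 FPKM in SIN3 187HA cells and 133 FPKM in S2 cells (-1.25).

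Among 10 genes for negative regulators and transcriptional readouts of the pathway, 10 were counted, 2 were higher and 0 were lower, with a median of 0.35. Beside this list and that of the PVR effectors below, 14.3% of all counted rows were higher and 12.8% lower. *sty*, which encodes Sprouty, a feedback inhibitor induced by EGF and FGF receptor signaling, had 644 FPKM in SIN3 187HA cells and 249.95 FPKM in S2 cells, a log2 ratio of 1.36. *aop*, which encodes the ETS repressor Yan, had 91.6 FPKM in SIN3 187HA cells and 33.3 FPKM in S2 cells (1.46). In the list of Rac and JNK side effectors of PVR, 8 of 8 genes were counted, with 0 higher, 1 lower and a median of 0.49. The lower gene was *Crk*, an adaptor gene on chromosome 4, with 45.6 FPKM in SIN3 187HA cells and 91.99 FPKM in S2 cells. Its log2 ratio of -1.01 was at the limit, and it did not pass with 1 FPKM added, with all ratios centred on the median row or with equal FPKM totals.

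**Figure D4:**
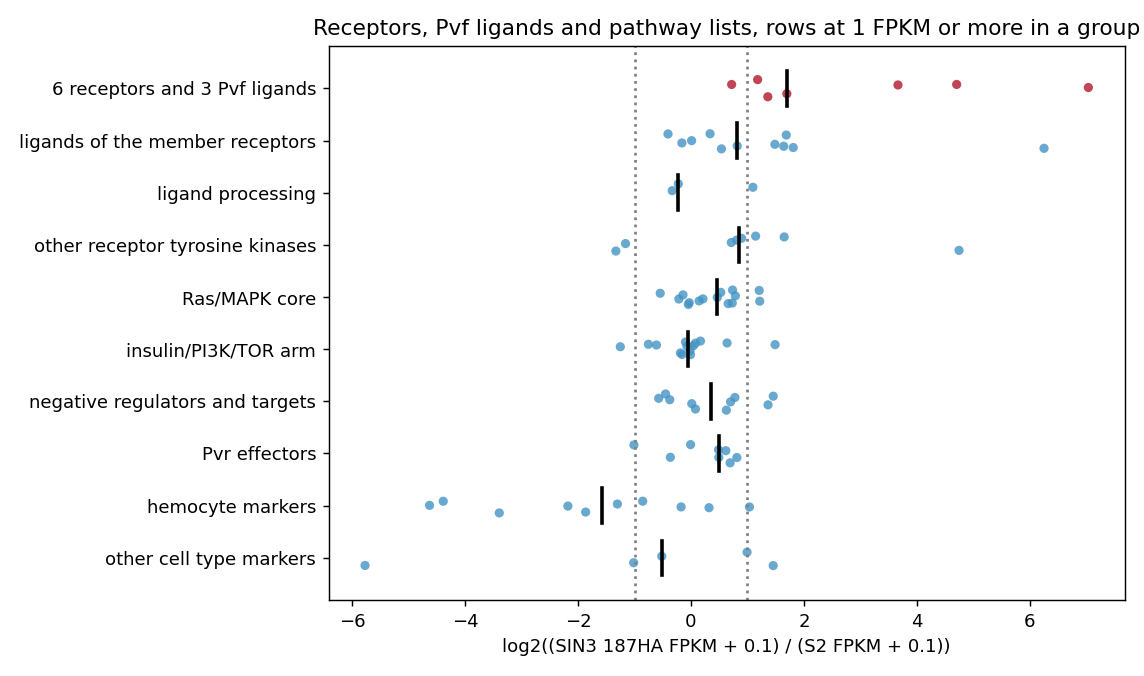
log2 ratio of SIN3 187HA over S2 with 0.1 FPKM added, for the counted genes of each list (points; bars, medians; dotted lines, 2-fold). The receptors and Pvf ligands have a median of 1.70, the ligands of the other receptors one of 0.82, the Ras/MAPK core one of 0.47 and the hemocyte markers one of -1.59. With 1 FPKM asked for in both groups, these medians are 1.36, 0.54, 0.47 and -1.59.

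Most markers of hemocytes that were counted were lower in SIN3 187HA cells, in contrast to *Pvr* and its ligands. Of 11 hemocyte markers, 10 were counted, 6 were lower and 1, the row that *ush* shares with *MED15*, was higher. Beside this list and the next, 12.8% of all counted rows were lower and 14.3% higher. The summed level of the hemocyte markers was 507 FPKM in SIN3 187HA cells and 1391 FPKM in S2 cells. Of these sums, *He* alone made up 72.7 FPKM in SIN3 187HA cells and 766 FPKM in S2 cells. Of the 10 counted markers, 2 had a log2 ratio above 0, the row of *ush* and *crq*. *crq* had 107 FPKM in SIN3 187HA cells and 86.0 FPKM in S2 cells. No hemocyte marker was at 0. *Sr-CI*, a scavenger receptor, had 3.32 FPKM in SIN3 187HA cells and 84.6 FPKM in S2 cells, and *eater*, a phagocytosis receptor, had 2.30 FPKM in SIN3 187HA cells and 50.2 FPKM in S2 cells. *He* (log2 ratio -3.40), *Pxn* (-2.18) and *NimC1* (-1.87) were also lower. The row that *srp*, the blood cell GATA factor, shares with *CR44133* had 77.0 FPKM in SIN3 187HA cells and 86.9 FPKM in S2 cells. *Hml*, a plasmatocyte marker, was below 1 FPKM in both groups. Of 11 markers of neurons, glia, muscle, germline, gonad soma and fat body, 5 were counted, with *elav* higher (log2 ratio 1.46) and *Mef2* (-1.02) and *Fas3* (-5.77) lower. *Mef2* did not pass the limit with 1 FPKM added, with centring or with equal FPKM totals. The 11 markers summed to 18.7 FPKM in SIN3 187HA cells and 39.5 FPKM in S2 cells, and *tj* was listed at 0 in S2 cells. Of these sums, *Fas3* made up 0.204 FPKM in SIN3 187HA cells and 16.5 FPKM in S2 cells. The part of these marker differences in the results for the receptors and ligands was not tested.

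To see whether a gene differed along with its surroundings, the 24 nearest counted rows, 12 on each side, were examined. The surroundings of the Pvf2/Pvf3 pair were mixed, with medians below 0. The 24 rows around *Pvf2*, *Pvf3* included, had a median log2 ratio of -0.52. Of these, 9 were above 0, 3 were called higher and 4 lower. Those around *Pvf3*, *Pvf2* included, had a median of -0.48, with 10 above 0, 4 called higher and 4 lower. *Pvf3* was the highest among itself and its neighbours, and *Pvf2* was the 4th highest. The flanking rows *Nuf2* (-0.67) and *CG4495* (-0.75) were below 0. Of the 24 rows around *Pvr*, 12 were above 0 and 4 were called higher, with a median of -0.02; the 4 were the rows next to *Pvr* on its side of higher coordinates. The first of them, the serpin gene *Spn28F*, had 1.13 FPKM in SIN3 187HA cells and 0.119 FPKM in S2 cells, far below the level of *Pvr*, and *Snx6* on the other side had a log2 ratio of 0.21. *htl* had the highest value of its surroundings, whose median was 0.03.

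*Pvf1* and *InR* lay among rows that were mostly above 0 as well. Around *Pvf1*, 23 of 24 rows were above 0 and 10 were called higher, with a median of 0.96, and *Pvf1* was 3.74 above that median on the log2 scale. Around *InR*, 22 of 24 rows were above 0 and 9 were called higher, with a median of 0.51, from which *InR* differed by 0.85. With 6 rows on each side the median around *InR* was 1.01, which leaves a difference of 0.35. *InR* stood at one end of a run, since the next 8 counted rows towards higher coordinates were called higher too. The first of them was *E2f*, a cell cycle transcription factor gene, with 89.9 FPKM in SIN3 187HA cells and 34.4 FPKM in S2 cells, and the highest was *CG15497*, chosen after its values were seen, with a log2 ratio of 9.28. On the other side of *InR*, *CG7956* had a log2 ratio of 0.28. The median of the surroundings of *Egfr* was 0.15. *Alk*, which was not counted itself, had 24 neighbours with a median of -0.94, and *tor* had neighbours with a median of -0.06.

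**Figure D5:**
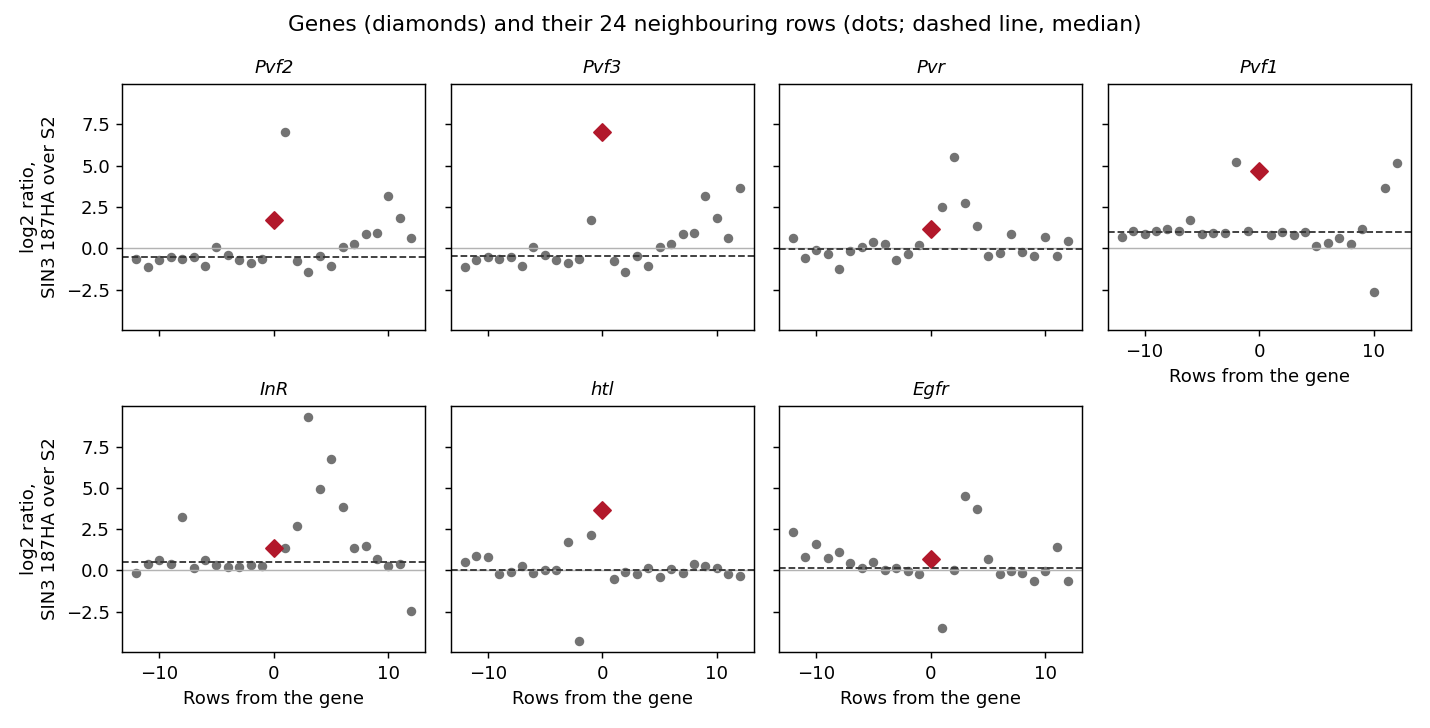
log2 ratio of SIN3 187HA over S2 (vertical axis) for 7 genes (red diamonds) and their 24 nearest counted rows (grey dots) in order along the chromosome (horizontal axis, rows from the gene), with the neighbours' median as a dashed line. *Pvf2* and *Pvf3* lie above the medians of their neighbours, -0.52 and -0.48, whereas the median of the neighbours of *Pvf1* is 0.96.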

How the data were processed

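Reads were paired-end and mapped by the authors with Tophat on Bowtie2 against dm3. Cufflinks, run on RefSeq gene models, gave levels, and Cuffdiff the group values; versions are not given in the sources used here. The authors deposited 1 table that holds, for either group, an FPKM in which the 3 replicates are combined. Its columns of fold change, test statistic, p-value and q-value hold the authors' own comparison and were not used. Groups came from the sample titles.

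Log2 ratios were computed with 0.1 FPKM added, and rows with at least 1 FPKM in a group were counted, with a limit of 2-fold. No test was run because no replicate values were at hand. Symbols of the lists were matched by exact symbol or by a RefSeq synonym that is no other gene's symbol. Fragment numbers were estimated from the lowest steps of FPKM times transcript length, with a fragment length of 200 nt. Transcript lengths and overlapping genes came from the Ensembl annotation of BDGP6, a later build. Exact (Clopper-Pearson) intervals rest on the estimated fragments. Positions are those of the table in dm3 and are the span of a locus, which can hold several genes. Values of *btl* are not reported here and enter no count or sum of the receptors; the reason was not their size. All other receptors and Pvf ligands are named with both values, and in each list the genes past 2-fold, at most 5 in each direction; where another gene is named, the text says so, except marker genes and rows that share or flank a locus. The genes, lists and rules were chosen with earlier results of these data known. Only the calling of rows past 2-fold was tested on simulated data. The fragment estimates, the intervals, the neighbourhoods and changes in rows with low values were not tested in this way. Python 3.11.15, numpy 2.4.6, pandas 2.3.3, scipy 1.17.1 and matplotlib 3.10.9 were used.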

Additional observations from a re-analysis of the deposited data

How the results depend on the processing

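The calls of *Pvr*, *Pvf1*, *Pvf2*, *Pvf3*, *InR* and *htl* as higher were the same with 1 or 0.01 FPKM added, with ratios centred on the median row and with equal FPKM totals. With 1 FPKM asked for in both groups, the number of higher genes was 3 instead of 6, because *Pvf1*, *Pvf3* and *htl* were below it in S2 cells. It was 7 with a limit of 1.5-fold, which took in *Egfr*, and 4 with a limit of 3-fold, which left out *Pvr* and *InR*. With no minimum, 7 genes were higher, *Alk* among them, and 1 gene, *tor*, was counted as lower instead of 0. With 1 FPKM added, the log2 ratio was 0.29 for *Alk*, against 1.40 with 0.1 FPKM, and -0.70 for *tor*, against -2.31; the calls of *Ilp5*, *Ret* and *stet* also ended. Without any addition, chosen after seeing the data, the log2 ratio was 7.62 for *Pvf3*, 6.20 for *Pvf1* and 6.23 for *htl*. Of 270 counts and medians of the lists under these alternatives, other fold limits and a restriction to rows with 1 gene, 53 moved by over 1.5 times (counts) or by at least 0.1 (medians on the log2 scale). With 6 rows on each side, 4 of 9 neighbourhood medians moved by at least 0.1, and the signs for *Pvr* (0.22) and *htl* (-0.03) turned. No paired analysis was possible because the table holds 1 combined value per group; leaving out single replicates could not be run for the same reason.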
